A study of Mus musculus with 6 samples.

Results

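The miR-297, miR-466, miR-467 and miR-669 microRNAs (miRNAs) are 4 families whose hairpins are mostly encoded as repeats inside the mouse gene Sfmbt2. All rows of the count table with the prefix mmu-miR- and one of these 4 numbers were taken, 21 of 1109 entries. By family they were 1 miR-297, 12 miR-466, 3 miR-467 and 5 miR-669 entries, 10 named for the 5p arm of the hairpin and 11 for the 3p arm. Small RNA was sequenced from RAW 264.7 cells, a macrophage-like line derived from a male mouse. The oxLDL group holds 3 libraries of cells that received ox-LDL, an oxidized low-density lipoprotein, for 48 h. The control group holds 3 libraries of untreated cells. The labels state no dose and no time point for untreated cells, and the table heads their columns with 0 h, so ox-LDL and time in culture cannot be told apart. They do not say whether libraries of a group came from separate cultures, so p-values measure the spread between these libraries, which may be technical. As all cells were of one line, nothing here covers primary macrophages.

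A miRNA is cut from a hairpin precursor, and either arm of the hairpin can be loaded into the silencing complex, which finds target messenger RNAs mainly through the seed, the bases near the 5′ end of the miRNA. Sfmbt2 encodes a Polycomb group protein, one of the factors that keep genes silent through chromatin, and is expressed in the mouse from the paternal copy in early embryos and placenta. One of its introns carries a long tandem array of these hairpins, which is known from mouse and rat, is studied mainly in placenta and embryonic stem cells, and has expanded by repeated duplication. Ox-LDL is taken up by macrophages through scavenger receptors as they become lipid-laden foam cells.

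The mature sequences are printed because they show the simple-repeat letters of family members that lie outside Sfmbt2; none is from the array. The RefSeq sequence table (GRCm38.p6) matched 1 of the 21 entries, miR-466i-3p at chr13:17747552-17747573 on the plus strand. Of the relatives without a row here, miR-466q lies at chr3:28419988-28420007 and miR-466k at chr3:85467396-85467418, both on the plus strand, and miR-467f at chr11:69635419-69635439 on the minus strand. Capitals mark the seed, bases 2 to 8, and the sequences run 5′ to 3′.
miR-466i-3p: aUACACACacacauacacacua
miR-467f: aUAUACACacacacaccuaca
miR-466q: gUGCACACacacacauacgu
miR-466k: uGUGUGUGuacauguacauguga
All 4 hold long stretches in which A and C, or U and G, alternate. In miR-466i-3p the longest such stretch is 11 bases, in miR-467f and miR-466q 12 bases each, and in miR-466k 9 bases. Of 8 miRNAs of these families in the sequence table, 6 have such a stretch of at least 8 bases. Among all 1679 mature mouse miRNAs there, 13 (0.774%) have one, these 6 included. Their 8 seeds are all different.

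Totals ran from 5502826 to 6572486 miRNA reads in the oxLDL libraries and from 6570099 to 7373188 in the controls. Levels are given in CPM, normalized reads after TMM scaling to a common library size, and 1 read stood for between 0.132 and 0.186 CPM. A value of 0 reads leaves room for up to 3 reads, which is 0.493 to 0.559 CPM in an oxLDL library and 0.397 to 0.410 CPM in a control. The 6 miRNAs listed as markers of macrophages and blood cells summed to between 81008 and 90748 CPM in oxLDL and between 71481 and 83233 CPM in control. In each library most of these reads were miR-142a-5p, so the sum does not show how the single markers changed. Of 10 markers of embryonic stem cells and the early embryo, where the Sfmbt2 array is known to be active, 4 had a row, and these summed to at most 0.336 CPM in oxLDL and 0.662 CPM in control. Control replicate 2 stood apart in the markers of other tissues. The liver marker miR-122-5p ran from 1.97 to 11.9 CPM in oxLDL and from 5.05 to 85.7 CPM in control, the last value being that library's.

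One entry held most of the reads. The 5p arm of the miR-466i hairpin, miR-466i-5p, had 158.75 of the 185.6 reads of all 21 entries over the 6 libraries, 85.5%. It had 11.6, 29.25 and 38.1 reads in the oxLDL libraries, against 20.25, 34.1 and 25.4 reads in the controls. It was the 1 entry of the 21 with a value above 0 in every library, and ranked 374 by mean CPM among the 475 miRNAs with reads enough for a test. In CPM this was 2.17, 4.80 and 6.41 in oxLDL, against 2.77, 4.52 and 3.46 in control. The lowest and the highest of the 6 libraries were both oxLDL libraries, and the control values all lay between them. The highest oxLDL library was 2.96 times the lowest, and the highest control library 1.63 times the lowest. Exact 95% Poisson intervals, which cover counting error only, ran from 1.11 to 3.82 CPM in oxLDL replicate 1 and from 4.54 to 8.79 CPM in oxLDL replicate 3, so that these replicates differed beyond counting error. Amplified reads with no molecular barcode need not come from separate molecules, so the intervals can cover less than the full error. Divided reads are not whole counts, and the intervals treat them as if they were. Whether this makes the intervals too wide or too narrow is not known.

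Setting oxLDL against control asks whether the miRNA levels of these macrophage-like cells change under ox-LDL. By group miR-466i-5p averaged 4.46 ± 2.14 CPM in oxLDL and 3.58 ± 0.880 CPM in control (SD, n = 3 each). Its log2 fold change was 0.34 (SE 0.383, 95% interval -0.55 to 1.22), or 1.26 times with an interval of 0.683 to 2.33 times. It did not pass edgeR's quasi-likelihood test after Benjamini-Hochberg adjustment over all 475 tested entries (adjusted p = 0.489, unadjusted p = 0.405). The difference was smaller than the spread between oxLDL replicates, and the interval holds both a fall and a rise. Among all tested entries 45.7% were called at an adjusted p of 0.05, 21.7% higher and 24.0% lower in oxLDL, and their median log2 fold change was -0.13. The groups overlapped for miR-466i-5p, whereas they did not overlap for 59.4% of tested entries. In a bulk library, fewer cells that carry a miRNA and less of it per cell cannot be told apart.

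The direction of the miR-466i-5p value rested on oxLDL replicate 3. Without oxLDL replicate 3 the log2 fold change was -0.0068 (edgeR adjusted p = 0.995), and without oxLDL replicate 1 it was 0.62 (edgeR adjusted p = 0.161). Without control replicate 2 it was 0.52 (edgeR adjusted p = 0.391), and with library totals in place of TMM 0.17 (edgeR adjusted p = 0.709).

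**Figure D1:**
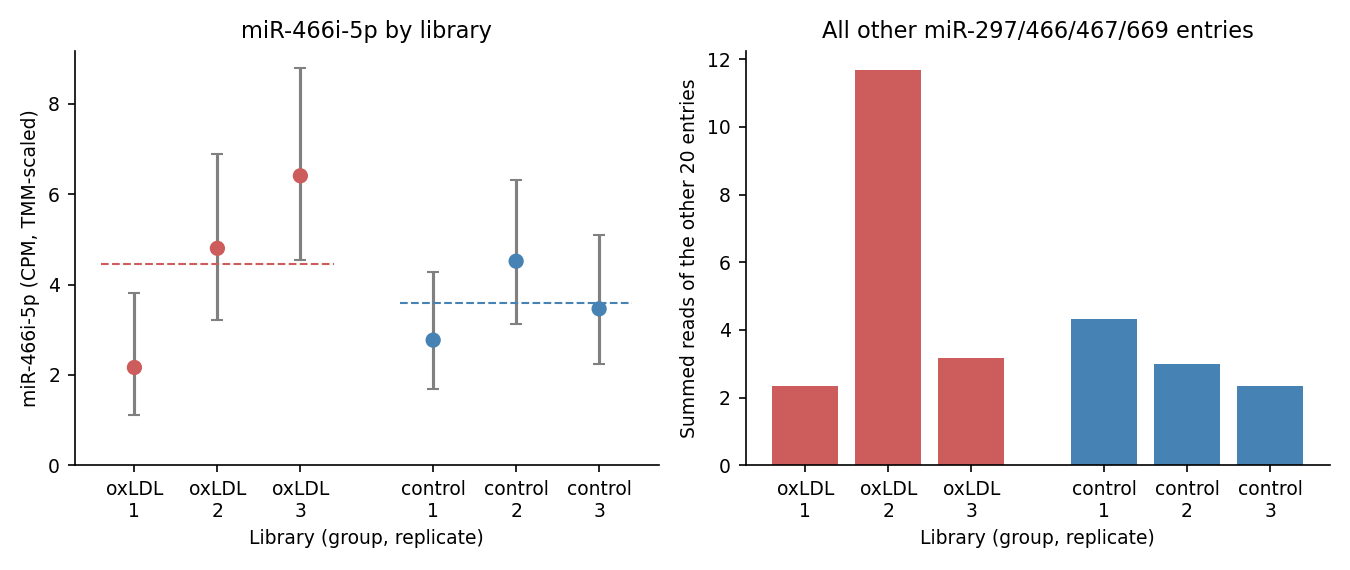
The left panel plots miR-466i-5p in CPM for each library, oxLDL in red and control in blue, with exact 95% Poisson intervals as grey bars and group means as dashed lines; the oxLDL libraries run from 2.17 to 6.41 CPM and enclose the control range of 2.77 to 4.52 CPM. The right panel shows the summed reads of the other 20 entries in each library, where oxLDL replicate 2 has 11.7 reads and the other libraries between 2.33 and 4.33.

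**Figure D2:**
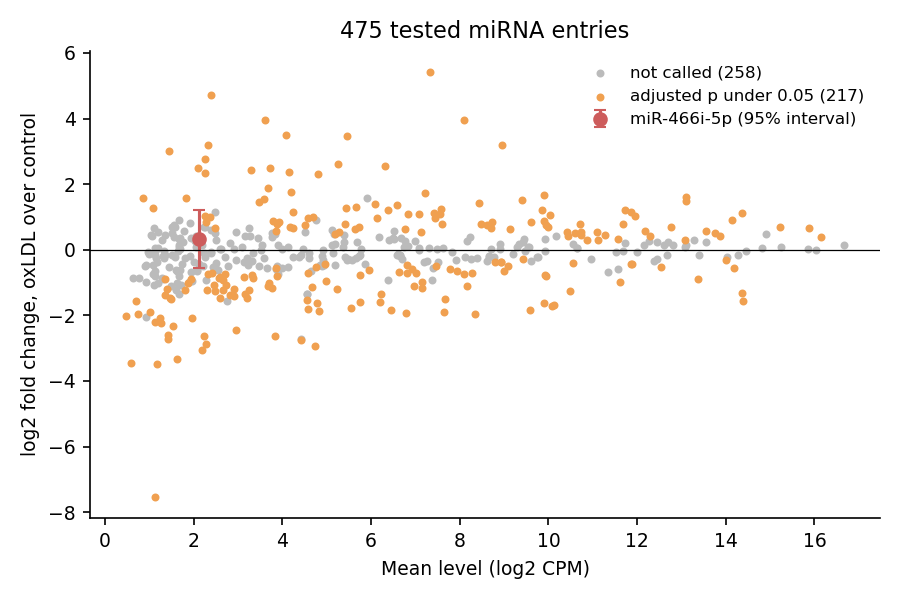
Each point is 1 of 475 tested miRNA entries, with its mean level in log2 CPM on the horizontal axis and the log2 fold change of oxLDL over control on the vertical axis; called entries are orange. The red point is miR-466i-5p at a log2 fold change of 0.34, with its 95% interval reaching from -0.55 to 1.22 across the zero line.

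The other 20 entries had 26.8 reads in all, too few for any to be tested. They summed to 2.33, 11.7 and 3.17 reads in the oxLDL libraries, against 4.33, 3.00 and 2.33 reads in the controls. Only oxLDL replicate 2 stood out, and the groups overlapped. Its 11.7 reads include 8 entries with 1 read each and identical values, which may be fewer reads counted at several copies. With at least 1 read in a library counted as detection, 3, 10 and 3 of the 21 entries were detected in the oxLDL libraries, against 5, 3 and 2 in the controls. Across the groups 16 entries had a value above 0 in an oxLDL library and 9 in a control library, with 4 in both. These counts rested on single libraries and on identical copies. Without oxLDL replicate 2 the oxLDL count was 7, without control replicate 2 the control count was 5, and with identical entries counted once it was 7 in each group. Those 4 were all miR-466 entries: miR-466i-5p, miR-466i-3p, miR-466f-3p and miR-466h-3p.

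Within the miR-466 family, miR-466f-3p came second with 5.33 reads in all. It had 0.333, 0.667 and 0.667 reads in the oxLDL libraries, against 1.33, 0 and 2.33 reads in the controls, so it stayed under 3 reads everywhere. The opposite arm of the leading hairpin, miR-466i-3p, had 0, 3 and 0 reads in oxLDL, against 1, 0 and 0 reads in control. Over all libraries 158.75 reads were counted under the name of its 5p arm and 4 under that of its 3p arm. The efficiency of adaptor ligation differs between RNA ends, so the 2 numbers are reads and not molecules.

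The remaining miR-466 entries reached at most 1 read in any library. The entries miR-466h-3p (0.5 reads in oxLDL replicate 3 and 0.5 in control replicate 2) and miR-466p-5p (0.5 reads in control replicate 2) never reached a whole read. Of the other families, miR-467a-5p and miR-467b-5p had 1 read each in oxLDL replicate 1, and miR-467c-5p had 1 read in control replicate 1. The one miR-297 entry, miR-297c-5p, had 1 read, in control replicate 1 as well. In the miR-669 family miR-669a-5p and miR-669p-5p had 1 read each in oxLDL replicate 3 and miR-669c-3p had 1 in oxLDL replicate 2, while miR-669a-3p and miR-669o-3p had 1 each in control replicate 2. All of these values lie below the 3 reads that a count of 0 allows, so a difference between the groups was not detectable for them at this depth.

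**Figure D3:**
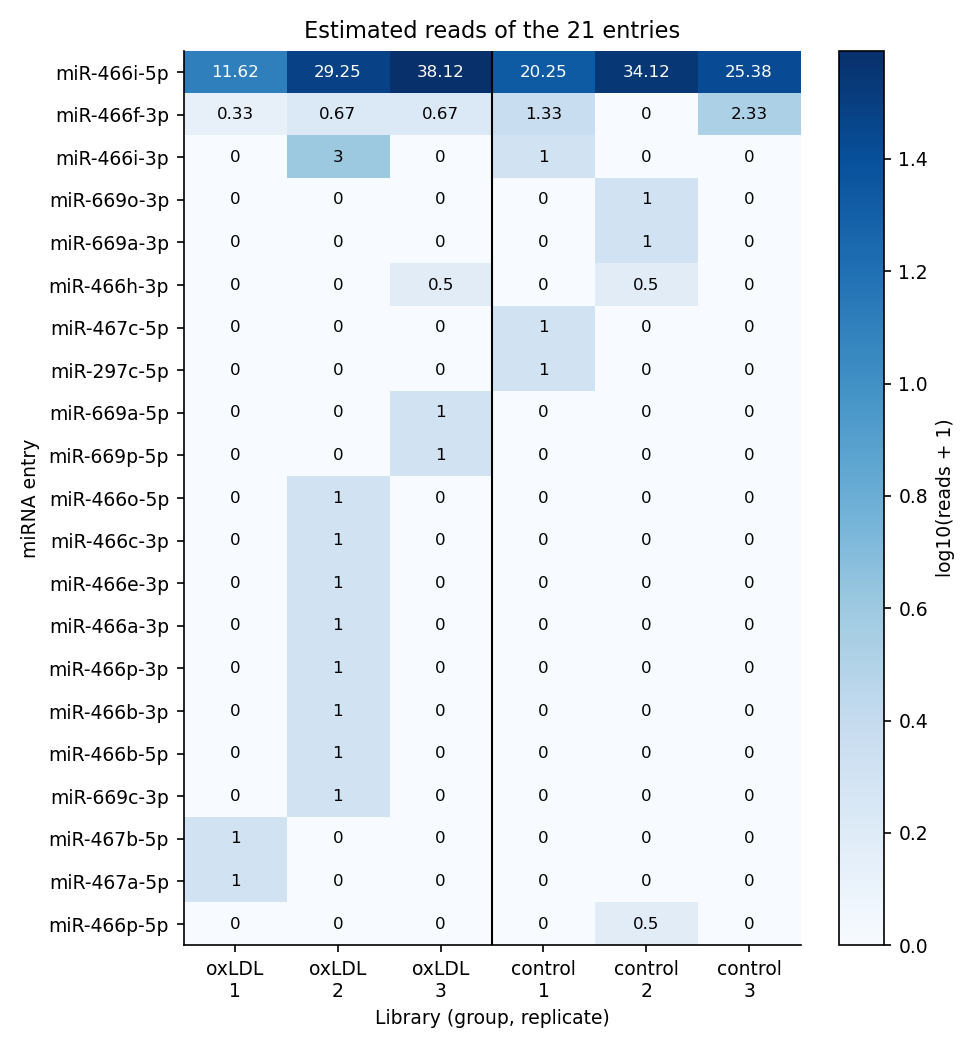
Estimated reads are printed for each of the 21 entries (rows) in the 3 oxLDL and the 3 control libraries (columns), with darker blue for more reads on a log10(reads + 1) scale. The top row, miR-466i-5p, holds between 11.6 and 38.1 reads in every library, and 18 of the 21 entries never exceed 1 read.

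Pooling the copies of a family sets aside how divided reads were split inside it, but sums a read more than once if it was counted at several copies. Pooling left the smaller families under 3 reads in every library, the number that a count of 0 allows. The miR-466 family summed to 2.23, 6.55 and 6.60 CPM in the oxLDL libraries, against 3.09, 4.65 and 3.78 CPM in the controls. As for miR-466i-5p alone, oxLDL replicate 1 was the lowest of the 6 libraries and the other 2 oxLDL libraries the highest. The group means were 5.13 ± 2.51 CPM in oxLDL and 3.84 ± 0.782 CPM in control (SD, n = 3 each). The difference of 1.29 CPM was smaller than the SD of the oxLDL libraries, and it was 2.74 CPM without oxLDL replicate 1, 0.575 CPM without oxLDL replicate 2 and 0.550 CPM without oxLDL replicate 3. Without control replicate 2 it was 1.69 CPM, and with library totals in place of TMM 0.754 CPM. With identical entries counted once it was 0.959 CPM. Without miR-466i-5p the family fell to 0.0621, 1.75 and 0.196 CPM in oxLDL, against 0.319, 0.132 and 0.318 CPM in control.

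The smaller families stayed at or below 0.373 CPM when pooled. The miR-669 family had 0, 1 and 2 reads in the oxLDL libraries, against 0, 2 and 0 in the controls. Its control reads were all in control replicate 2, and the difference between the group means was 0.0785 CPM with that library and 0.167 CPM without it. The miR-467 family had 2, 0 and 0 reads in oxLDL, against 1, 0 and 0 in control. The miR-297 family had 0 reads in each oxLDL library, against 1, 0 and 0 in the controls. Over all 21 entries the pooled level was 5.42 ± 2.44 CPM in oxLDL and 4.02 ± 0.802 CPM in control (SD, n = 3 each), with overlapping groups. The difference was 1.40 CPM, and 2.81 CPM without oxLDL replicate 1, 0.750 CPM without oxLDL replicate 2 and 0.639 CPM without oxLDL replicate 3. Without control replicate 2 it was 1.85 CPM, with library totals 0.847 CPM, and with identical entries counted once 0.988 CPM. No test was made of these sums.

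Several copies carried identical values. In 5 sets, 16 of the 21 entries had the same reads as another entry in all 6 libraries, each with a total of 1 read. The largest set held 8 entries with 1 read in oxLDL replicate 2 and 0 elsewhere. These were miR-466a-3p, miR-466b-3p, miR-466b-5p, miR-466c-3p, miR-466e-3p, miR-466o-5p, miR-466p-3p and miR-669c-3p. The other sets were the pairs miR-467a-5p with miR-467b-5p, miR-669a-5p with miR-669p-5p, miR-467c-5p with miR-297c-5p, and miR-669a-3p with miR-669o-3p. At a total of 1 read, equal values also arise among unrelated entries. Entries with exactly 1 read in 1 library made up 12.4% of the whole table (137 of 1109), of which 29 were in oxLDL replicate 2 and between 19 and 24 in each other library. Among the 21 entries they made up 76.2%, with 8 in oxLDL replicate 2, 2 in each of 4 other libraries and 0 in control replicate 3. Whether the 8 entries stand for 8 reads, or for fewer reads that matched several copies, cannot be told apart from the table. With identical entries counted once, detection was at 2 to 3 entries per library in oxLDL and 2 to 4 in control.

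Other entries carried divided reads. Non-whole values (tolerance 1e-06) occurred in 40 of 1109 entries (3.61%), and in 4 of these 21 (19.0%). For 35 of the 40 entries, doubling the values gave whole numbers, and for 4 others multiplying by 3 did. The exception was miR-466i-5p, whose values became whole on multiplying by 8, at 93, 234 and 305 in oxLDL and 162, 273 and 203 in control. Its 6 values were all non-whole. The values of miR-466f-3p became whole on multiplying by 3, and those of miR-466h-3p and miR-466p-5p on doubling. The sources used here do not state the rule of division, so the number of sites behind a value is not known, and reads that match repeats elsewhere in the genome may be among those counted.

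Position set the leading entry apart from the Sfmbt2 array. The GENCODE annotation (release M21, GRCm38) holds 81 hairpins of these families, 71 of them inside Sfmbt2 (chr2:10370510-10595253, plus strand). All 71 lie in introns and on the strand of Sfmbt2. They span 51617 bases (chr2:10466663-10518279) and start 96153 bases from the start of the gene, with 29 miR-669, 23 miR-466, 14 miR-467 and 5 miR-297 hairpins. The other 10 hairpins lie on 7 other chromosomes. By name, 20 of the 21 entries matched 48 of the hairpins, and miR-466a-3p matched none.

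The hairpin Mir466i lies outside Sfmbt2, at chr13:17747473-17747593 on the plus strand, in an intron of Cdk13, a gene on the minus strand that encodes a cyclin-dependent kinase. The entries named for its 2 arms held 162.75 of the 185.6 reads, 87.7%. They summed to 11.6, 32.25 and 38.1 reads in the oxLDL libraries, against 21.25, 34.1 and 25.4 reads in the controls. The entry miR-466f-3p matched 4 hairpins, 3 in Sfmbt2 and Mir466f-4 at chr13:71107089-71107209, between genes. The 17 entries whose hairpins all lie in Sfmbt2 had 16.5 reads (8.89%). These were 2, 7 and 2.5 reads in the oxLDL libraries, against 2, 3 and 0 in the controls, with overlapping groups. In CPM these were 0.373, 1.15 and 0.420 in oxLDL, against 0.274, 0.397 and 0 in control, so the overlap in CPM rested on control replicate 2. Without that library the controls had 2 and 0 reads, and the groups touched at 2 reads but not in CPM. The gap from 0.274 to 0.373 CPM came from scaling alone, as both libraries had 2 reads. Identical copies also weigh on these sums. All 7 reads of oxLDL replicate 2 came from the set of 8 entries with identical values. Pairs with identical values held 2 reads each in oxLDL replicates 1 and 3 and in control replicates 1 and 2. If such values are 1 read counted at several copies, these sums are too high, that of oxLDL replicate 2 most. Thus most of the reads under these names belong to entries that the annotation places outside the Sfmbt2 gene. The table does not show which copy a divided read came from.

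The entries with the most hairpin copies had 1 read each. The name miR-669a has 12 hairpins, and each of its arms had 1 read. For miR-467a, with 10 hairpins, the 5p arm had 1 read, and for miR-466b, with 8, each arm had 1. The leading miR-466i-5p has 1 hairpin under its name.

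**Figure D4:**
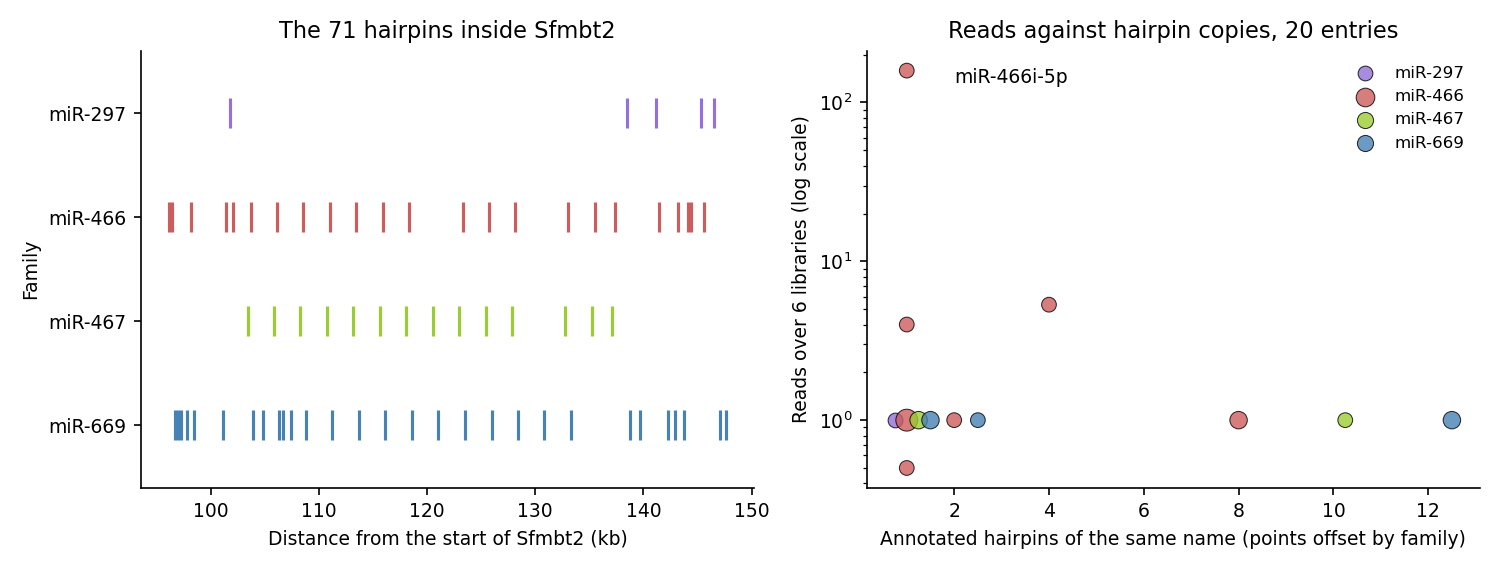
The left panel marks the 71 hairpins inside Sfmbt2 by family, with the distance from the start of the gene in kb on the horizontal axis; the hairpins of the 4 families are interleaved along the array. The right panel plots the reads of 20 entries over all 6 libraries (log scale) against the number of annotated hairpins of the same name, with larger points for several entries at one place; miR-466i-5p, with 1 hairpin, lies at 158.75 reads, and the entries with 8, 10 and 12 hairpins at 1 read.

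Detection was set beside that of the imprinted Dlk1-Dio3 cluster, another large miRNA cluster that is expressed from one parental copy. Of the 21 entries 17 (81.0%) had a value above 0 in just 1 library, against 16 of 47 Dlk1-Dio3 entries (34.0%) and 135 of the 1041 other entries (13.0%). Values above 0 in all 6 libraries were found for 1 of 21 (4.76%), against 6 of 47 (12.8%) and 615 of 1041 (59.1%). The median total over the 6 libraries was 1 read, against 3.5 reads for Dlk1-Dio3 and 35 reads for the others. Reads enough for a test were present for 1 of 21 (4.76%), 4 of 47 (8.51%) and 470 of 1041 (45.1%). These shares are descriptions, and the differences between the lists were not tested. Of the 21 entries, 16 belong to the identical sets, so 1 read that matched several copies could count as several entries seen in 1 library. Every entry had a value above 0 somewhere, so the shares leave out miRNAs that were never seen. Control replicate 2, which was high in markers of other tissues, also had the most Dlk1-Dio3 reads, with 360.5 against 92.5 to 253.5 in the other libraries. For the 21 entries its 37.1 reads were the most of any control, against 24.6 and 27.7 in control replicates 1 and 3. They lay below the 40.9 and 41.3 reads of oxLDL replicates 2 and 3. The 40.9 reads include the set of 8 entries with identical values at 1 read each.

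**Figure D5:**
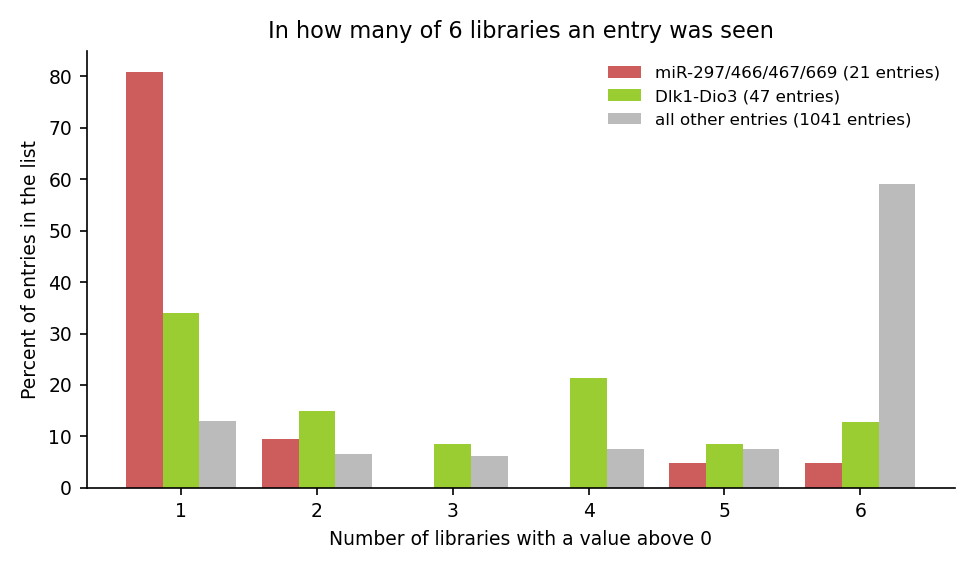
Bars give the percent of entries with a value above 0 in 1 to 6 libraries, for the 21 entries of the 4 families (red), 47 Dlk1-Dio3 entries (green) and 1041 other entries (grey). At 1 library the red bar stands at 81.0%, and at 6 libraries at 4.76% against 59.1% for the grey bar.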

How the data were processed

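The file the authors deposited holds unscaled estimated counts for mature mouse miRNAs in 6 libraries. The submitters' processing notes name the build GRCm38.p5, and the aligner, the counter and the rule for dividing reads are not given in the sources. Per the labels' protocols, small RNA was purified on a gel, ligated to adaptors at both ends, amplified and sequenced.

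Each column was assigned by its group and number. Estimated counts were rounded and tested over the whole table with the quasi-likelihood test of edgeR (version 4.0.16, under R 4.3.3), TMM factors, edgeR's filter by group, Benjamini-Hochberg adjustment and a threshold of 0.05. The step was also run on simulated whole counts of entries that pass the filter, which does not show how divided reads affect it. Pooled and detected values use unrounded reads. No library repeated another, as the lowest chi-square over the 15 pairs was 111 per degree of freedom. Entries named are tested ones, the 12 with the most reads, and sets with identical values. Others were named after their values were seen. Members and lists were chosen with earlier results of these data known. Alternatives included DESeq2 (1.42.0) and limma (3.58.1).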

Additional observations from a re-analysis of the deposited data

How the results depend on the processing

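No entry of the 21 was called in edgeR's test or under any of the 14 other settings, DESeq2 and limma-voom included. Likewise 0 had an unadjusted p under 0.05 in any of them. These zeros mainly concern miR-466i-5p, the 1 entry tested in most settings. The number tested was 19 with no filter on low counts. The entries added there had at most 3 reads in a library, too few for a lack of calls to be informative. The number tested was 0 when a mean of 10 CPM was required, which leaves no value for miR-466i-5p. Over all 475 tested entries edgeR's test called 217 (45.7%), and more had an unadjusted p under 0.05. The log2 fold change of miR-466i-5p ran from -0.0068 to 0.62 when 1 library was left out. It turned negative (-0.0068, without oxLDL replicate 3) in that setting alone. It was 0.27 with the replicate block, where the adjusted p was 0.561. Same-numbered libraries did not deviate together (correlations -0.30, -0.23 and -0.10), against -0.07 to 0.23 for libraries of unlike number. These correlations cannot show whether same-numbered libraries shared a culture or a day. The block gave 178 calls over all entries, against 217. Leaving out 1 library moved the pooled difference over all 21 entries between 0.639 and 2.81 CPM. Detection at 3 reads averaged 1.33 entries per library in oxLDL and 1 in control. It was 1 in both groups at 10 reads and at 1 CPM. Counting any value above 0, a limit chosen after seeing the data, gave 6.67 in oxLDL and 4 in control. Entries above 0 in any library of a group, settings chosen after seeing the data, ranged from 7 to 14 in oxLDL and 5 to 9 in control when 1 library was left out, and were 7 in each with identical entries counted once. Depth limits every entry, since all but miR-466i-5p have at most 3 reads in a library. For miR-466i-5p, with 11.6 to 38.1 reads, counting error alone was 16.2% to 29.3% per library if the divided values are taken as counts.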
